A study of Mus musculus with 4 samples.

Results

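Imprinted genes are the 50 genes described here, a list of well-known mouse genes expressed mainly from the maternal or the paternal copy, arranged in 18 chromosomal clusters. All 50 were found among the 49554 genes of the RefSeq table on the autosomes and X, 1 of them under an older symbol (Nespas); 43 are protein-coding and 7 are noncoding. Each received every ATAC-seq peak within 1 kb of its body or ends, and any other peak whose nearest gene end lay within 50 kb and was its own. This gave 137 of 44139 peaks in Gata2cKO cells and 158 of 49394 peaks in Gata2WT cells. ATAC-seq marks open chromatin by the insertion of sequencing adapters with the Tn5 transposase.

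Both genotypes were C57BL/6J mice. Female fetal ovaries were taken at E14.5 (embryonic day), germ cells were enriched on beads against SSEA1, and about 10000 cells entered each library. The Gata2cKO embryos carried floxed Gata2 and the Prdm1-Cre transgene, which is active in the germ cell lineage, and the Gata2WT embryos came from the same cross of Gata2flox/+ Prdm1-Cre males with Gata2flox/flox females. Every embryo of that cross, those called Gata2WT included, inherits at least 1 floxed allele from its dam. The Cre status of the Gata2WT embryos, the part of Gata2 removed and any pooling of ovaries are not stated in the labels. Each genotype had 2 samples, and the values below come from 1 combined peak list per genotype. They have no replicate error, so a test of the genotypes could not be made and differences are given as values.

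In genomic imprinting, DNA methylation set in the egg or the sperm marks a control region, and the mark decides which parental copy of the surrounding genes is expressed. Most control regions are methylated in the egg and coincide with the promoter of a paternally expressed gene, often a noncoding RNA; a few, such as those of H19, Dlk1-Meg3 and Rasgrf1, lie between genes and are methylated in sperm. Primordial germ cells erase these marks, and in females new ones are set only in growing oocytes after birth, so E14.5 female germ cells fall into the erased interval. DNA methylation was not analysed here, and the peak lists do not separate the parental copies.

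The promoters below show imprinted promoters that were open in both lists beside 2 that were not. They are the 250 bases before the transcript start, read 5′ to 3′ on the + strand, from RefSeq on GRCm38.p6. The first 4 belong to paternally expressed genes with an open promoter in both lists, and their capitals mark TGCCGC or its reverse complement GCGGCA, the core that ZFP57, a zinc finger protein that keeps imprints in the early embryo, binds when methylated. Nnat had no peak at its promoter in either list. It holds no match in these bases, but 1 in the longer window that adds 50 bases after the start. Among such longer windows of members, the core occurred in 11 of 39 with a peak in both lists (28.2%). It occurred in 3 of 15 with no peak (20%), so the promoters shown do not stand for open and closed ones in general. Slc22a18 had a peak in Gata2WT alone, and its capitals mark AGATAA, a form of the motif of GATA factors.
Mcts2: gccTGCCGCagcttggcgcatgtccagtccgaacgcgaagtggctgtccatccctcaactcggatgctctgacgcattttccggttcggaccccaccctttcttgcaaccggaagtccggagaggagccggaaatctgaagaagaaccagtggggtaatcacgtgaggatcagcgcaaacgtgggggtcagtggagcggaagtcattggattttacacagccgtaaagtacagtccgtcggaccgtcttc
Plagl1: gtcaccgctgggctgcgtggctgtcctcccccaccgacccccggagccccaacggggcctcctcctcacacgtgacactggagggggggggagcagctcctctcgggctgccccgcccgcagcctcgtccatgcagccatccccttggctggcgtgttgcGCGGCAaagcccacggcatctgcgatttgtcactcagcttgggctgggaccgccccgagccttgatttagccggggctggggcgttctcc
Mest: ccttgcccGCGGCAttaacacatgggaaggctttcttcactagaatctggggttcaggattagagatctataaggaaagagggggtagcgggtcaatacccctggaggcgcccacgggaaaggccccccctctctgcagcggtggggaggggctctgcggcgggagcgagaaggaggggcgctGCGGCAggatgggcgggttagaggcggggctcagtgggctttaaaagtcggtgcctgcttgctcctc
Zdbf2: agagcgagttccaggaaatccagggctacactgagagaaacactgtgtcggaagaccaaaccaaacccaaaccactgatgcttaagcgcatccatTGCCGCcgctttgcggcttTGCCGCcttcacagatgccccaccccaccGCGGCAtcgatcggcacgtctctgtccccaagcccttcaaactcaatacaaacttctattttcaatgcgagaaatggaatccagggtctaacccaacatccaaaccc
Nnat: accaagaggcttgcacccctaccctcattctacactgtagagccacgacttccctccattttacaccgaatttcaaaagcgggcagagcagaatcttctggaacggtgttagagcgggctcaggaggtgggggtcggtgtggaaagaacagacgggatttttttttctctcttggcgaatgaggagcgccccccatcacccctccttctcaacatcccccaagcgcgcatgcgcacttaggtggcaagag
Slc22a18: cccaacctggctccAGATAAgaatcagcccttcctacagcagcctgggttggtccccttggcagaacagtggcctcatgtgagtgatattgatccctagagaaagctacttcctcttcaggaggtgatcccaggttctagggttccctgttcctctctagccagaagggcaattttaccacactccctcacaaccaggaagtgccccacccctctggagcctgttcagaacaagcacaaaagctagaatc
These windows lie at chr2:152686898-152687147 (Mcts2), chr10:13090582-13090831 (Plagl1), chr6:30737800-30738049 (Mest), chr1:63200108-63200357 (Zdbf2), chr2:157559828-157560077 (Nnat) and chr7:143473539-143473788 (Slc22a18). They hold 20 CpG in Mcts2, 19 in Plagl1, 14 in Mest, 13 in Zdbf2, 12 in Nnat and 0 in Slc22a18. The ZFP57 core occurred 1 time in the Mcts2 and Plagl1 windows, 2 times in Mest and 3 times in Zdbf2.

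For most of the imprinted genes, chromatin close to a gene end was open in both genotypes. Of the 50 genes, 46 had at least 1 peak in both lists. That count takes in gene bodies and peaks up to 50 kb away, so it favours long genes. It was not made over all genes and has no background here. In 37 (74%) both lists held a peak within 1 kb of a gene end, against 36.5% of all genes. Among protein-coding genes the share was 33 of 43 (76.7%) for imprinted genes and 62.8% for all, and the 1 protein-coding gene with such a peak in Gata2WT alone compares with 2.29% of all. Only H19 had a gene-end peak in Gata2cKO alone (1.62% of all genes did), only Slc22a18 had one in Gata2WT alone (2.92% of all genes did), and 11 genes had none in either list. A gene end is the first or last annotated base, since the gene table gives no strand, so it can be the 3′ end, and a start inside the span of a gene is missed. Of those 11, Igf2, Snrpn, Mest and Commd1 had a peak in both lists within 1 kb of an internal annotated start. Meg3, Rian, Ddc, Slc22a2 and Nnat had none at any annotated start in both lists, and Ins2 and Rtl1 had no start in the promoter table.

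Peaks present in 1 list alone were about as frequent at imprinted genes as over all peaks, within counting error. In the Gata2cKO list 21 of 137 imprinted peaks (15.3%, 95% Wilson interval 10.2% to 22.3%) overlapped no Gata2WT peak and are called cKO-only; over all peaks it was 19.7%. In the Gata2WT list 42 of 158 (26.6%, interval 20.3% to 34.0%) overlapped no Gata2cKO peak and are called WT-only; over all peaks it was 28.5%. Both intervals hold the background share, and they cover counting error only. The 2 lists are of unequal length, and with equal lengths 14 of the 42 WT-only peaks left the Gata2WT list and 28 remained WT-only. The shares at equal lengths were 25 of 137 cKO-only (18.2%) and 28 of 139 WT-only (20.1%).

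Single-list peaks were mostly weak and lay away from gene ends. The strength of a peak is given as the authors' −log10 q, where q is the p-value of its summit against local background adjusted over the genome. Of the 57 Gata2cKO imprinted peaks with a −log10 q under 5, 19 were cKO-only (33.3%; 43.9% over all peaks), and of the 66 such Gata2WT peaks, 37 were WT-only (56.1%; 58.5% over all peaks). Of those with at least 5, whatever the strength of an overlapping peak in the other list, it was 2 of 80 in Gata2cKO (2.50%; 4.74% over all peaks) and 5 of 92 in Gata2WT (5.43%; 7.61% over all peaks). When the partner in the other list also had to reach 5, the counts were 10 of 80 in Gata2cKO (12.5%) and 22 of 92 in Gata2WT (23.9%). The shares over all peaks given here do not use that rule and are no background for these counts. No Gata2cKO imprinted peak of the 48 with a −log10 q of at least 10 was cKO-only (Wilson upper bound 7.41%; 0.802% over all peaks), and 2 of 58 Gata2WT peaks of that strength were WT-only (3.45%; 1.30% over all peaks). Within 1 kb of the end of any gene, 2 of 48 Gata2cKO peaks (4.17%; 6.94% over all peaks) and 4 of 52 Gata2WT peaks (7.69%; 11.1% over all peaks) were single-list. Farther out the counts were 19 of 89 in Gata2cKO (21.3%; 27.8% over all peaks) and 38 of 106 in Gata2WT (35.8%; 38.4% over all peaks). At the summit the median single-list peak held 12 fragments in Gata2cKO and 11.5 in Gata2WT, against 22 and 25 at shared imprinted peaks. The lowest summit pileup in either list was 8 fragments, so these peaks stood close to the limit of detection.

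**Figure D1:**
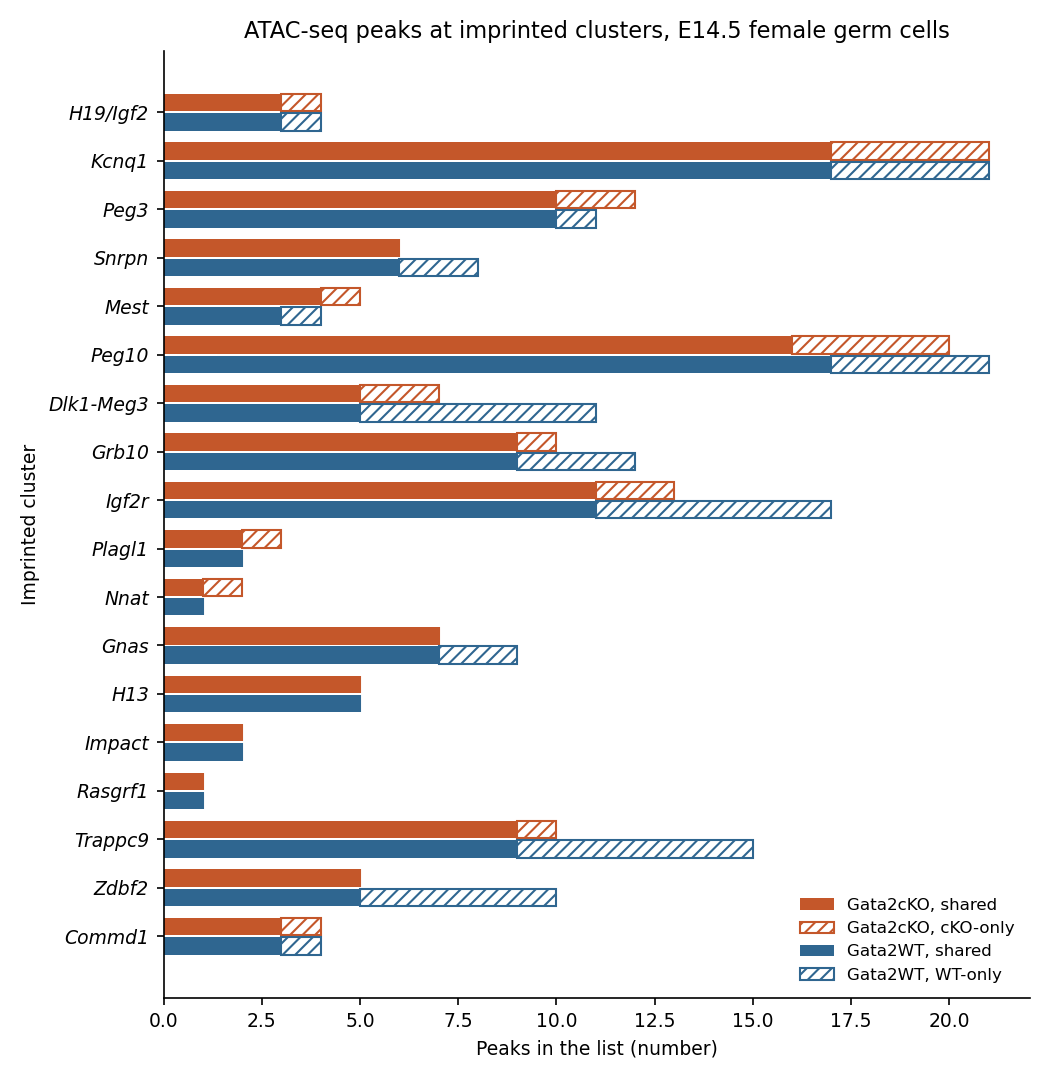
Peaks in each imprinted cluster, Gata2cKO bar above Gata2WT bar, by number on the horizontal axis. Filled bars are peaks that overlap a peak of the other list and hatched bars are peaks in 1 list alone; Dlk1-Meg3, Trappc9, Igf2r and Zdbf2 have the longest hatched Gata2WT bars (6, 6, 6 and 5 peaks).

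The bar chart of peaks per cluster shows where the 42 WT-only peaks fell. The Dlk1-Meg3 cluster had 2 of 7 single-list peaks in Gata2cKO and 6 of 11 in Gata2WT (54.5%, interval 28.0% to 78.7%). Trappc9 had 1 of 10 in Gata2cKO and 6 of 15 in Gata2WT (40.0%, interval 19.8% to 64.3%), and Zdbf2 had 0 of 5 in Gata2cKO and 5 of 10 in Gata2WT (50%, interval 23.7% to 76.3%). Igf2r had 2 of 13 in Gata2cKO and 6 of 17 in Gata2WT (35.3%, interval 17.3% to 58.7%). All of these Gata2WT intervals hold the 28.5% of all Gata2WT peaks. By gene, Trappc9, a subunit of a vesicle tethering complex, had 6 WT-only peaks, and Dlk1, Airn and Zdbf2 had 5 each. These counts were not scaled to gene length, and some peaks of each of these genes leave the Gata2WT list at equal list lengths. The most cKO-only peaks were the 3 of Ppp1r9a and the 2 of Kcnq1, and the other cKO-only peaks fell 1 to a gene. The H13, Impact and Rasgrf1 clusters had no single-list peak, with 5, 2 and 1 peaks in each list.

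The promoters that carry the maternal mark in oocytes were open in both genotypes with few exceptions. Mcts2, a retrogene inside an intron of H13 (a signal peptide peptidase), had the strongest of them, with a −log10 q of 91.7 and 122 fragments in Gata2cKO, against 113 and 145 fragments in Gata2WT. Peg3, a zinc finger gene, had a peak 0.579 kb from its start in Gata2cKO (−log10 q 43.6, 134 fragments) and 0.687 kb away in Gata2WT (55.5, 167 fragments). Plagl1, a zinc finger growth regulator, had 48 fragments in Gata2cKO and 66 in Gata2WT at its start (−log10 q 29.8 and 41.5). All 3 promoters were in both lists.

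Of the 7 noncoding members, 4 (57.1%) were open at a gene end in both genotypes, against 26.6% of all lncRNA genes. Nespas is annotated as an antisense RNA and is not among those lncRNA genes, so the shares are not fully alike. H19 was open at an end in Gata2cKO alone, and Meg3 and Rian at no end in either genotype. The 4 open in both genotypes are given here. At the start of Kcnq1ot1, which silences the Kcnq1 cluster in cis, 61 fragments were counted in Gata2cKO and 74 in Gata2WT, with −log10 q values of 36.8 and 41.4. At the start of Airn, which silences Igf2r, 57 fragments were counted in Gata2cKO and 68 in Gata2WT (−log10 q 36.1 and 40.4). Nespas, the antisense RNA of the Gnas cluster, had 74 fragments at its end in Gata2cKO and 92 in Gata2WT (38.3 and 48.9). Peg13, a noncoding RNA inside Trappc9, had 52 at its end in Gata2cKO and 59 in Gata2WT (29.3 and 32.9).

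At other imprinted genes the peak nearest the start or gene end ranged widely in strength, and in Impact, Peg10 and Grb10 a stronger one lay inside the gene. Zrsr1, a retrogene inside Commd1, had 46 fragments in Gata2cKO and 61 in Gata2WT (−log10 q 23.3 and 33.7). Snrpn, which codes for a core protein of splicing particles, had 35 fragments in Gata2cKO and 54 in Gata2WT (12.1 and 24.8). Mest, which codes for a hydrolase-fold protein, had 26 in Gata2cKO and 27 in Gata2WT (9.63 and 8.26). Impact, a regulator of translation with no start in the promoter table, had 20 fragments in both lists at the peak near its gene end (9.96 and 10.4) and a stronger one inside the gene, with 88 fragments in Gata2cKO and 92 in Gata2WT (48.2 and 49.1). Peg10, a retrotransposon-derived gene with no start in the promoter table, had 15 fragments in Gata2cKO and 16 in Gata2WT near its gene end (2.71 and 2.98). A stronger shared peak lay 1.77 kb inside Peg10, with 37 fragments in Gata2cKO and 33 in Gata2WT (19.8 and 15.7). Grb10, an adaptor of the insulin receptor expressed mainly from the maternal copy outside the brain, had 14 in Gata2cKO and 15 in Gata2WT near its outer start (3.37 and 2.26). Its strongest peak lay inside the gene, 1.42 kb from an inner start in Gata2cKO and 1.26 kb in Gata2WT, with 58 fragments in Gata2cKO and 86 in Gata2WT (36.4 and 63.0).

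Nnat was the exception among these promoters. Neuronatin, its product, is a small membrane protein, and the gene lies inside an intron of Blcap. No peak lay within 1 kb of Nnat in either list, and the nearest one was 5.84 kb from its start in Gata2cKO and 5.86 kb in Gata2WT, at the end of Blcap. That Blcap peak was strong in both, with 67 fragments in Gata2cKO and 85 in Gata2WT (−log10 q 40.4 and 52.1). Within the same transcription unit, the host promoter was called and the imprinted one was not; the smallest pileup that could be called at the genome background was 8 fragments in either list.

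The control regions methylated in sperm lie between genes; their limits are not in the gene table, so peaks are placed by distance from the genes. Upstream of H19, a maternally expressed noncoding RNA, on the side of Igf2 where its control region lies, 2 peaks were shared. The nearer, chr7:142580121-142580800 in Gata2cKO and chr7:142580162-142580802 in Gata2WT, held 26 and 29 fragments (−log10 q 8.99 and 10.5) at 1.98 and 2.02 kb from H19. The farther, chr7:142581384-142581849 in Gata2cKO and chr7:142581377-142581841 in Gata2WT, held 16 and 20 fragments (2.69 and 4.54).

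Next to the H19 end, chr7:142578245-142578591 was a peak in Gata2cKO alone, with 16 fragments and a −log10 q of 2.47. Igf2, the growth factor of this cluster, had its main peak inside the gene, with 38 fragments in Gata2cKO and 62 in Gata2WT (17.2 and 31.7). Ins2, which codes for insulin, had no peak in either list. Rasgrf1, an exchange factor of Ras, had 1 peak at its start, with 21 fragments in Gata2cKO and 26 in Gata2WT (7.48 and 10.8).

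Between Dlk1, a Notch-related ligand, and Meg3, a maternally expressed noncoding RNA, lie 77.7 kb that hold the control region of that cluster. In this interval 4 peaks were shared and 1 was cKO-only. The shared peak with the most fragments, chr12:109527289-109528512 in Gata2cKO and chr12:109527289-109528415 in Gata2WT, lay 12.5 and 12.6 kb before Meg3 and held 38 fragments in Gata2cKO and 50 in Gata2WT (−log10 q 17.9 and 25.9). Closer to Meg3, at 1.54 and 1.55 kb, a shared peak had more fragments in Gata2cKO, with 33 fragments in Gata2cKO and 19 in Gata2WT (15.7 and 6.90). So did a peak at 20.4 kb, with 26 fragments in Gata2cKO and 15 in Gata2WT (14.4 and 4.52). The shared peaks of this interval were not among the 137 and 158, because the nearest gene end was that of an unlisted gene.

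Meg3 had no peak at its first start in either list, and its only peak was a weak WT-only one inside the gene, 0.609 kb from a second start (11 fragments, −log10 q 1.88), which drops out of the Gata2WT list at equal list lengths. Rtl1, a retrotransposon-derived gene of the cluster, had none in either list, and Rian, a further noncoding RNA, had 1 shared peak, with 13 fragments in Gata2cKO and 17 in Gata2WT. Dlk1 was open at its start in both, with 27 fragments in Gata2cKO and 28 in Gata2WT. Of the 6 WT-only peaks in the cluster, 5 lay 2.23 to 49.9 kb from Dlk1 on its far side from Meg3, with −log10 q values of 1.54 to 6.87, 2 of them above 5 (6.87 at chr12:109402265-109402581 and 5.25 at chr12:109417676-109417940). Dio3, a deiodinase of thyroid hormone, had 55 fragments in Gata2cKO and 85 in Gata2WT at its shared peak (28.4 and 49.5), and a second gene-end peak that was cKO-only and weak (16 fragments, 1.18).

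**Figure D2:**
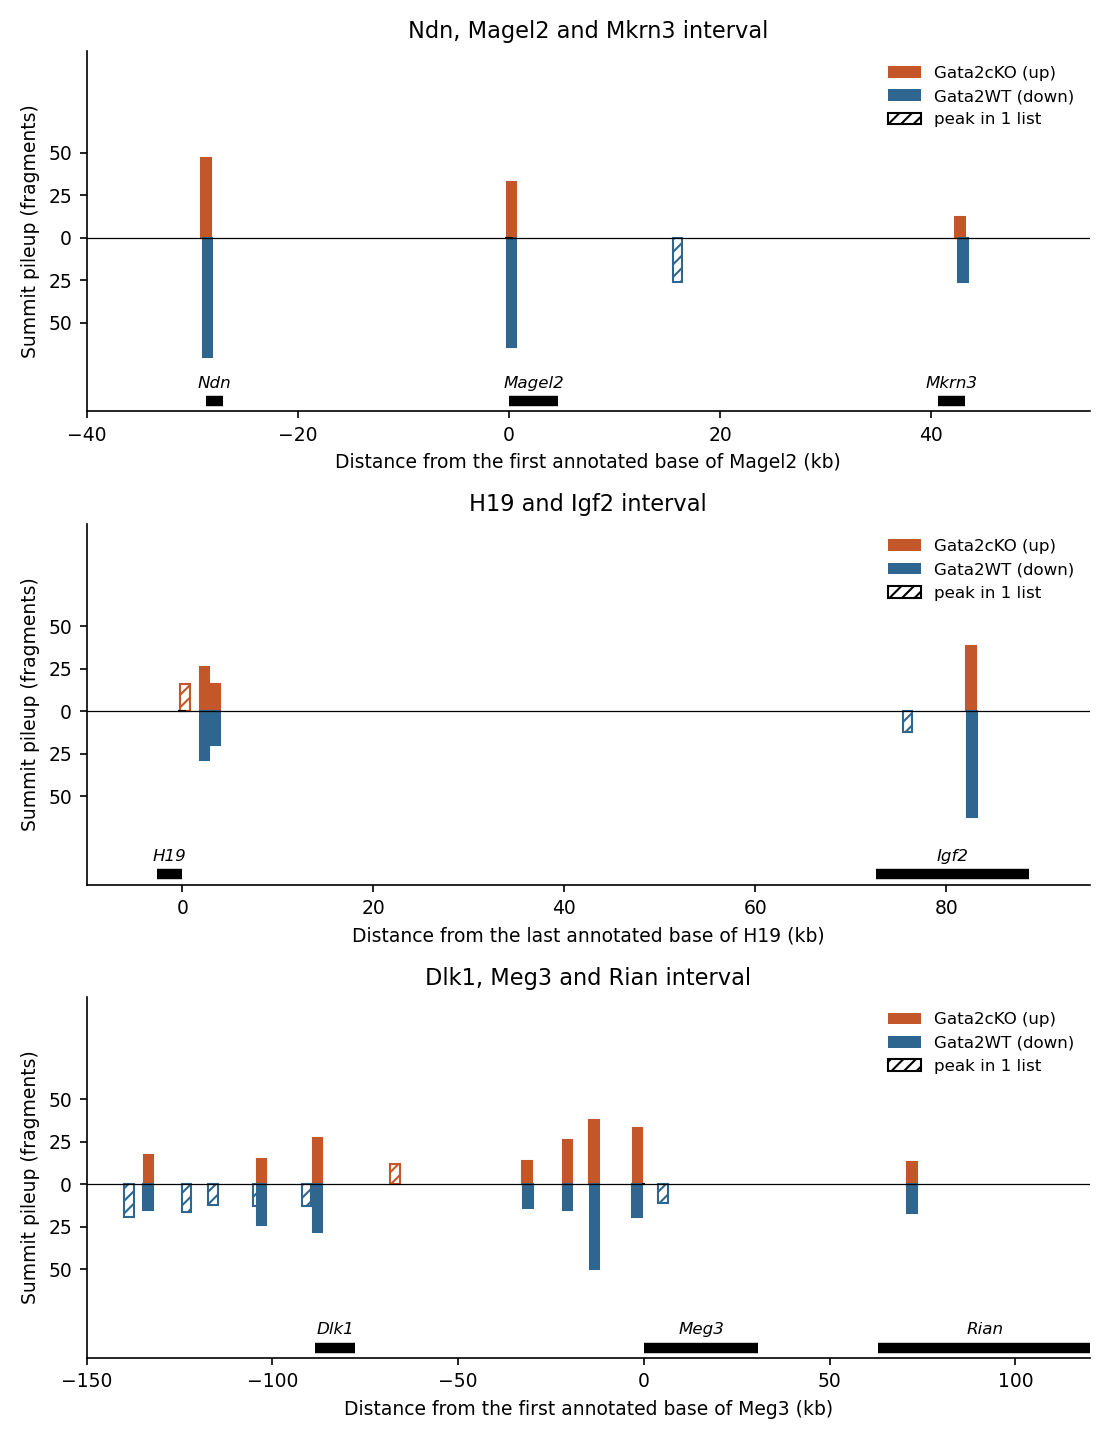
Summit pileup in fragments (vertical axis, Gata2cKO upward and Gata2WT downward) against distance in kb along the Magel2, H19 and Meg3 regions, with genes as black bars. Hatched bars are peaks in 1 list alone; bars have a fixed width and do not show peak width. The WT-only peak between Magel2 and Mkrn3 holds 26 fragments, and in the bottom panel 5 WT-only peaks lie on the far side of Dlk1.

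The Snrpn cluster had the lowest Gata2cKO pileups relative to Gata2WT of the clusters with 3 or more shared pairs. For peaks paired between lists, the ratio of summit pileups, Gata2cKO over Gata2WT, was taken on the log2 scale and centred on the median of all 35137 shared pairs, which was −0.22 before centring. All 6 pairs of the cluster were below 0, with a median of −0.38. Ratios without centring or centred on the genome backgrounds are lower still by construction, so those settings are no separate check. Magel2, a MAGE family gene, held 33 fragments in Gata2cKO and 64 in Gata2WT (fold enrichment over local background 7.67 and 10.4), a centred log2 ratio of −0.74 (95% counting interval −1.39 to −0.11). Mkrn3, a makorin ubiquitin ligase, held 12 in Gata2cKO and 26 in Gata2WT (−log10 q 4.06 and 14.2), a ratio of −0.90 (interval −2.02 to 0.14). Ndn, which codes for necdin, held 47 in Gata2cKO and 70 in Gata2WT, a ratio of −0.36 (interval −0.92 to 0.20).

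The other 3 pairs of this cluster had ratios of −0.41 to −0.13. The Snrpn start had a ratio of −0.41 (interval −1.07 to 0.23), a further Snrpn peak with 26 fragments in Gata2cKO and 33 in Gata2WT had −0.13, and Ube3a, a ubiquitin ligase expressed from the maternal copy in neurons, had −0.17 with 118 fragments in Gata2cKO and 154 in Gata2WT (68.6 and 91.8). Only the Magel2 interval lay wholly below 0. Intervals of this kind excluded 0 on the lower side in 2.35% of all pairs.

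The strongest WT-only peak of all imprinted genes lay in the same stretch. It was chr7:62392693-62393529, 11.1 kb from Magel2 and between Magel2 and Mkrn3, with 26 fragments and a −log10 q of 16.9. It ranked 28 among all 14060 WT-only peaks, and the Gata2cKO list had no peak there. The second, chr2:174344044-174344383, lay inside Gnas, which codes for a stimulatory G protein subunit, 2.36 kb from its end, with 28 fragments and a −log10 q of 15.0 (rank 51). Both remained WT-only at equal list lengths. In the Gata2cKO list the strongest single-list peak was chr6:4910639-4911010 inside Ppp1r9a, which codes for neurabin, with 16 fragments and a −log10 q of 7.78 (rank 347 of 8710). Trappc9 had 1 single-list peak above 5 in each list, with 16 fragments and 5.45 in Gata2cKO (chr15:73021252-73022064) and 19 fragments and 6.59 in Gata2WT (chr15:73026894-73027318).

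**Figure D3:**
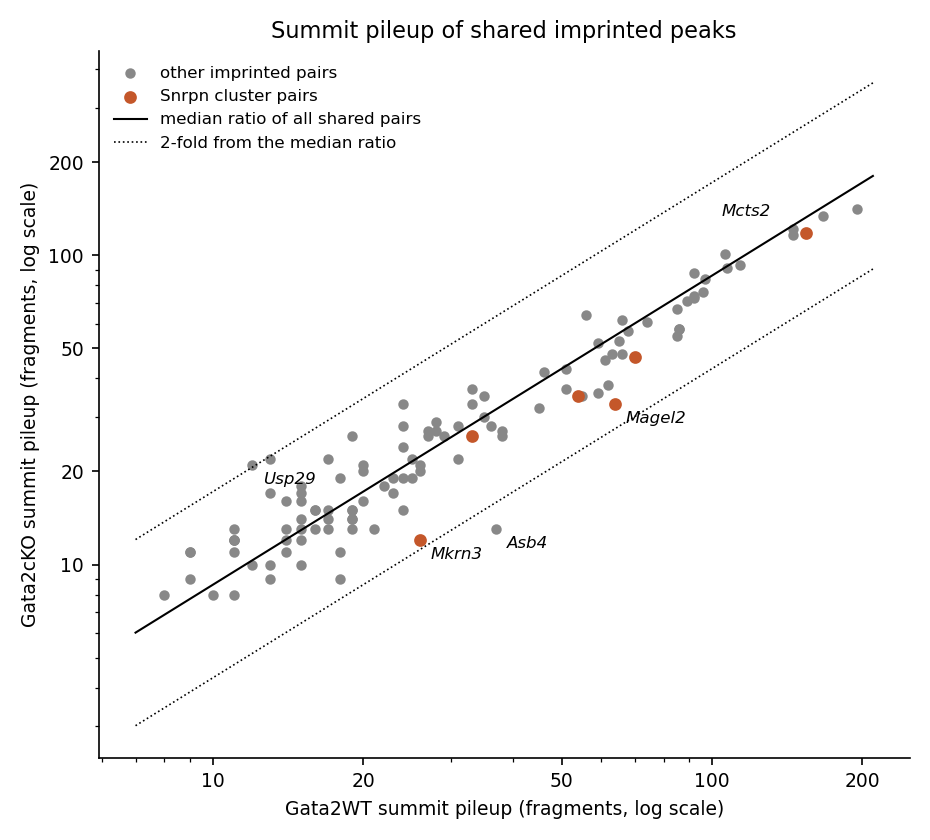
Summit pileup of the 114 shared imprinted pairs in fragments, Gata2cKO (vertical, log scale) against Gata2WT (horizontal, log scale). The solid line is the median ratio of all 35137 shared pairs and the dotted lines lie 2-fold from it; the 6 Snrpn cluster pairs (orange) fall below the solid line, and the Asb4 pair with 13 and 37 fragments falls below the lower dotted line.

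Over all 18 clusters the pileup ratios of shared peaks were close to those of the rest of the genome. The 114 imprinted pairs had a centred median of −0.07, and 67 of them (58.8%) were below 0, against 50% of all pairs. The 114 leave out the shared peaks between Dlk1 and Meg3 described above, some of them with more fragments in Gata2cKO. No ratio is given for those peaks. Among the 114, a difference of 2-fold or more was seen in 1 pair on each side (0.877%), against 1.40% of all pairs higher and 0.444% lower in Gata2cKO. The higher one lay inside Usp29, a ubiquitin protease gene of the Peg3 cluster, with 21 fragments in Gata2cKO and 12 in Gata2WT and a ratio of 1.02 (interval −0.07 to 2.18). The lower one lay inside Asb4, an ankyrin repeat gene of the Peg10 cluster, with 13 in Gata2cKO and 37 in Gata2WT and a ratio of −1.29 (interval −2.33 to −0.35). In 2 of the 114 pairs, those of Asb4 and Magel2, the interval excluded 0; over all pairs it did so in 2.04% on the higher and 2.35% on the lower side. The Gata2cKO genome background was 2.01 fragments and that of Gata2WT 2.19, 8.01% lower in Gata2cKO, and the part of this difference in uncentred pileups was not tested.

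**Figure D4:**
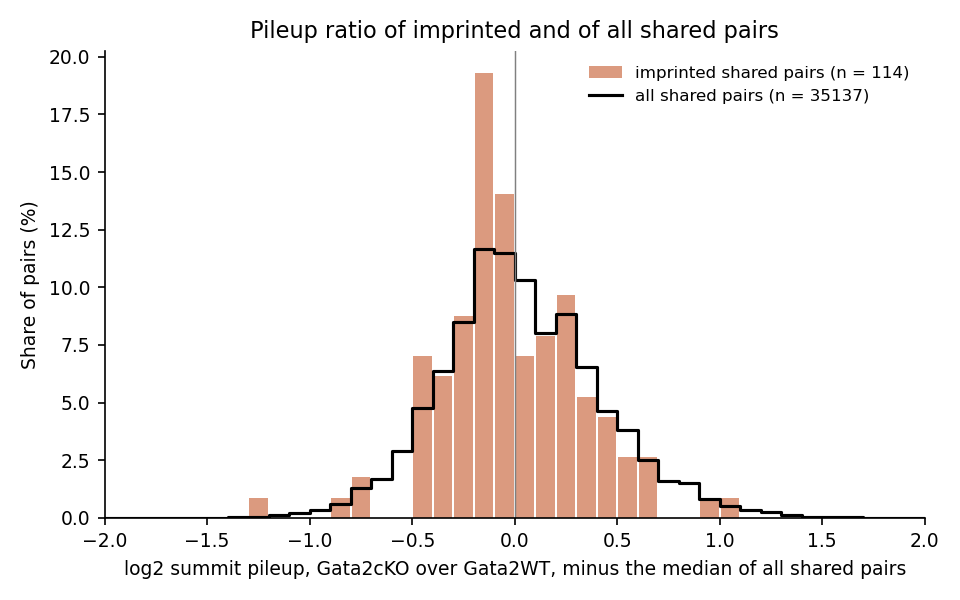
Share of pairs in percent (vertical) by log2 ratio of summit pileups, Gata2cKO over Gata2WT, centred on the median of all shared pairs (horizontal). Bars are the 114 imprinted pairs and the line is all 35137 pairs; the imprinted median is −0.07 and 58.8% of imprinted pairs lie below 0.

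The Kcnq1 cluster held several strong peaks, and its centred pileup ratios lay on both sides of 0. In the Kcnq1 cluster the strongest peak lay between Cd81, a tetraspanin gene, and Tssc4, with 141 fragments in Gata2cKO and 195 in Gata2WT (−log10 q 87.2 and 125). Cdkn1c, an inhibitor of cyclin-dependent kinases, had 76 fragments in Gata2cKO and 96 in Gata2WT, Phlda2, a brake on placental growth, 53 and 65, and Ascl2, a trophoblast transcription factor, 35 and 55. A peak inside Kcnq1, a potassium channel gene, had 33 in Gata2cKO and 24 in Gata2WT, a centred log2 ratio of 0.68. The counting interval held 0 for every pair of this cluster.

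Slc22a18, an organic cation transporter of the Kcnq1 cluster, was the 1 member with a gene-end peak in Gata2WT alone. That peak, chr7:143473468-143473757, held 17 fragments (−log10 q 3.49) and covers most of the promoter printed above, the AGATAA included. The nearest Gata2cKO peak was 3.59 kb from the start. Inside the gene, a shared peak had 22 fragments in Gata2cKO and 13 in Gata2WT (6.78 and 1.80), a ratio of 0.98 (interval −0.08 to 2.09). AGATAA or TGATAA, searched on both strands, occurred in 3 of 56 promoter windows of members (5.36%; Dlk1, Rian and Slc22a18) and in 18.6% of all 32619 windows of 300 bases.

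Elsewhere the members with the strongest promoters were in both lists. Zim1, a zinc finger gene, had 91 fragments in Gata2cKO and 107 in Gata2WT (−log10 q 70.7 and 82.9). Copg2, a coatomer subunit gene, had 93 in Gata2cKO and 114 in Gata2WT (66.8 and 83.0), and Klf14, a zinc finger gene, 36 and 59. Ppp1r9a had more in Gata2cKO, 64 fragments against 56 in Gata2WT (44.4 and 33.2), with an interval that held 0. Sgce, which codes for a sarcoglycan, had its strongest peak below a −log10 q of 5 in both lists. Igf2r, the receptor that clears IGF2, had 71 fragments in Gata2cKO and 89 in Gata2WT at its end (41.6 and 55.6), and Slc22a3, a cation transporter, 48 and 63. Its neighbour Slc22a2, also a cation transporter, had no gene-end peak and 1 shared peak inside the gene, with 12 fragments in Gata2cKO and 14 in Gata2WT. Ddc, which makes dopamine and serotonin, had none at its ends and 4 shared peaks inside the gene, the strongest with 28 in Gata2cKO and 36 in Gata2WT. Commd1, a copper homeostasis gene, had 84 fragments in Gata2cKO and 97 in Gata2WT at its internal start (64.0 and 70.4). H13 had 58 in Gata2cKO and 86 in Gata2WT at its first base. Trappc9 had 101 in Gata2cKO and 106 in Gata2WT at its gene end, and its strongest peak lay beyond that end, with 116 in Gata2cKO and 145 in Gata2WT (85.2 and 107). Zdbf2, a zinc finger gene, was weak at its outer start, with 14 fragments in Gata2cKO and 19 in Gata2WT. It was stronger at a second annotated start inside the gene, with 32 in Gata2cKO and 45 in Gata2WT (16.9 and 24.1). Its 5 WT-only peaks had −log10 q values of 1.33 to 3.27.

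**Figure D5:**
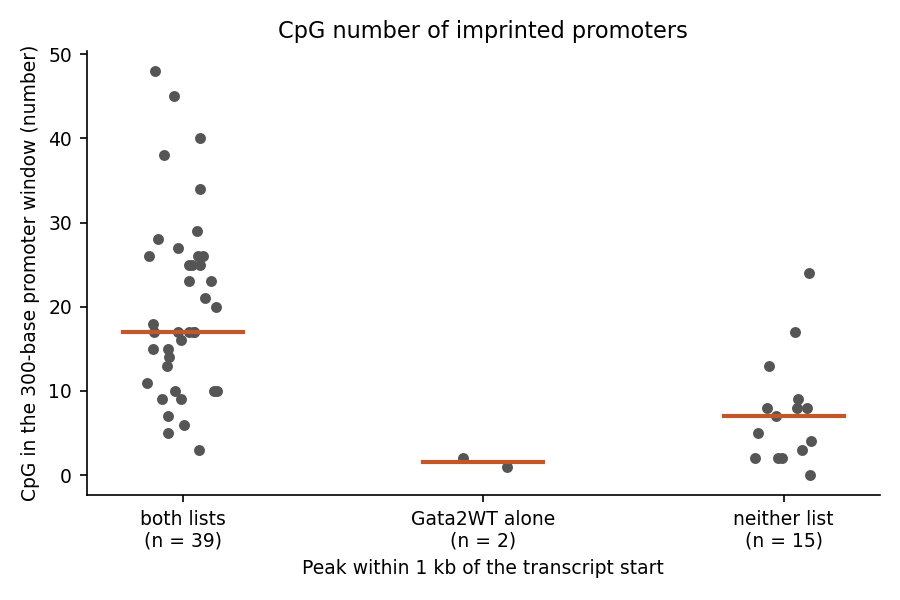
CpG number in the 300-base promoter windows of members (vertical) by whether a peak lay within 1 kb of the start (horizontal). Points are windows, 39 with a peak in both lists, 2 with a peak in Gata2WT alone and 15 with none; bars are medians of 17, 1.5 and 7 CpG.

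Open and closed promoter windows of members differed less in CpG number and in the ZFP57 core than those over all genes, as values with no test. A window with no peak is not a closed gene, since Snrpn, Igf2 and Mest each had such windows and another start open in both lists. Of the 50 members, 38 had windows in the promoter table, 56 in all, some of them overlapping. Windows with a peak in both lists had a median of 17 CpG (range 3 to 48, n = 39), against 20 over all such windows, and windows with no peak had 7 (n = 15), against 3 over all. TGCCGC, searched on both strands, occurred in 14 of 56 member windows (25.0%) and in 11.7% of all. Among windows with a peak in both lists it occurred in 11 of 39 (28.2%) and in 19.9% of all, and among those with none in 3 of 15 (20.0%) and in 3.45% of all. GCCATNTT, a form of the YY1 motif, searched on both strands, occurred in 2 windows (Mkrn3 and Ube3a; 3.57%, against 6.08% of all), and the CTCF core motif in 1 (Commd1; 1.79%, against 0.123% of all). A match is a description of the letters and not a bound site.

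Genes that set, keep or erase imprints had gene-end peaks in both lists in most cases. Both lists held a gene-end peak for 18 of 24 such genes (75%), with 1 in Gata2cKO alone (Ctcfl, a germline relative of CTCF, −log10 q 1.10), 1 in Gata2WT alone (Zfp57, 2.62) and 4 in neither (Dnmt1, Dnmt3a, Nlrp2 and Khdc3); over protein-coding genes 62.8% had one in both. Away from their ends Dnmt1, Dnmt3a, Khdc3 and Zfp57 had peaks in both lists. The strongest had a −log10 q of 77.3 in both lists for Dnmt1, the methyltransferase that copies methylation at replication. It was 19.3 in Gata2cKO and 24.2 in Gata2WT for Dnmt3a, 17.5 in Gata2cKO and 16.3 in Gata2WT for Khdc3, and 17.9 in Gata2cKO and 37.0 in Gata2WT for Zfp57. Nlrp2 had no peak in either list. Tet1, which oxidises methylated cytosine during erasure, had 3 peaks in Gata2cKO and 7 in Gata2WT, 4 of them WT-only, and its gene-end peak had −log10 q values of 33.9 in Gata2cKO and 45.0 in Gata2WT. Dppa3, a protector of methylation in the egg and a germ cell gene, had 3 peaks in each list, all shared. The strongest Dppa3 gene-end peak of each list had 30.2 in Gata2cKO and 5.24 in Gata2WT. These peaks were picked in each list separately and need not be partners of each other. The strongest Dppa3 peak in Gata2WT lay away from the gene ends and had 19.9. Single-list peaks made up 18 of 67 in Gata2cKO (26.9%; 19.7% over all peaks) and 25 of 73 in Gata2WT (34.2%; 28.5% over all peaks). In a second list of 26 imprinted genes, 19 were open at a gene end in both genotypes (73.1%), 1 in Gata2cKO alone (Sfmbt2, a polycomb gene, 1.88) and 6 in neither. Its single-list peaks made up 15 of 69 in Gata2cKO (21.7%) and 13 of 66 in Gata2WT (19.7%).

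Among cell type markers, 8 of 9 germ cell markers were open at a gene end in both genotypes. The ninth, Pou5f1, had a gene-end peak in Gata2WT alone (−log10 q 2.45). Supporting cell markers of the ovary were in both lists in 4 of 5 cases, stromal markers in 2 of 4 and endothelial markers in 3 of 4, against 62.8% of protein-coding genes. Since most protein-coding genes have such peaks, these counts do not check which cells were in the libraries. Over all peaks, single-list peaks made up 19.7% in Gata2cKO and 28.5% in Gata2WT. They made up 3 of 20 in Gata2cKO and 4 of 21 in Gata2WT for germ cell markers. For supporting cell markers it was 1 of 8 in Gata2cKO and 6 of 13 in Gata2WT. For stromal markers it was 0 of 7 and 4 of 10, and for endothelial markers 2 of 13 in both lists. Each set holds few peaks, and a difference from the shares over all peaks was not tested. The labels call the cells ovarian, and fewer germ cells or less open chromatin per cell cannot be told apart in such lists. The part of other cell types in the imprinted peaks was not tested. Gata2 itself had 1 peak in Gata2cKO and 2 in Gata2WT, the WT-only one at its gene end (45 fragments, −log10 q 4.27); since the deleted part is not given, these peaks do not check the deletion.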

How the data were processed

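ATAC-seq peaks were analysed for 2 Gata2cKO and 2 Gata2WT samples, grouped by the genotype in the labels. Peaks were called with MACS2 2.2.6 on GRCm38 (mm10), per the submitters' processing notes, which also name bedtools 2.29.2, Picard 2.23.0, SAMtools, Bowtie2 2.3.5.1 and Trimmomatic 0.39. The Tn5 shift, the duplicate filter and the way replicates were combined are not stated there. The deposited fold enrichment is the ratio of summit pileup to local background, its probability is deposited as −log10 p and −log10 q, and the deposited score follows the −log10 p; the smallest −log10 p was 3 in both lists. The deposited values were not scaled between genotypes.

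Rows with the same interval were merged to the highest summit (52236 rows in Gata2cKO and 58357 in Gata2WT on the autosomes and X). Summit pileups were solved from the fold enrichment and the −log10 p, and came out whole within 0.001 in −log10 p for 99.9955% of Gata2cKO and 99.996% of Gata2WT peaks. Reads per sample were not analysed here. A fragment is whatever unit the peak caller piled up. An overlap of 1 bp counted as shared, and pairs were mutual best partners. Wilson intervals for shares and Clopper-Pearson intervals for pileup ratios, both at 95%, cover counting error only. Gene ends came from the RefSeq table of GRCm38.p6. The steps were tested on simulated data, with Python 3.11.15, numpy 2.4.6, pandas 2.3.3, scipy 1.17.1 and matplotlib 3.10.9. Genes named in the text are the members themselves, the strongest single-list peaks, pairs past 2-fold and members of the fixed control-region and regulator lists; other examples were chosen after their values were seen. The members and lists were chosen with earlier results of these data known. Alternatives covered overlap, threshold, list length, distance, gene-end window, gene types, merging of rows and centring.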

Additional observations from a re-analysis of the deposited data

How the results depend on the processing

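Of 54 alternative values, 34 kept within the limits set for each result and 20 moved. The cKO-only share of 15.3% was 26.3% when each peak had to cover at least 0.5 of the other, 27.7% with summits within 250 bp and 4.88% at gene ends alone. The WT-only share of 26.6% was 36.1%, 37.3% and 2.38% under the same settings and 20.1% with equal list lengths, where fewer Gata2WT peaks remain. With equal list lengths the cKO-only share was 18.2%. Shares over all peaks under these settings are not given, so these values have no background beside them. Genes with a gene-end peak in Gata2cKO alone numbered 0 at a −log10 q of at least 5, 2 within 0.5 kb and 0 around annotated starts, an alternative chosen after seeing the data; those in Gata2WT alone numbered 3, 3 and 2, and those in neither numbered 4 around starts, where 38 genes have an entry. A −log10 q of at least 5 left 80 Gata2cKO and 92 Gata2WT peaks. Pairs at least 2-fold higher in Gata2cKO numbered 0 when centred on the genome backgrounds, 0 without centring and 2 with at least 20 fragments required; pairs 2-fold lower numbered 3 without centring. The shift of all pairs was −0.22 without centring. No paired analysis was possible because each genotype has 1 combined list, which also left no replicate to leave out. The lowest pileup in either list was 8 fragments, and for weak peaks an absence from a list cannot be told apart from a pileup below the threshold.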
